A study of Rattus norvegicus with 6 samples.

Results

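The 5 genes described here are 4 genes of cell division and 1 gene that restrains it, measured in cultured rat oligodendrocyte precursors at day 0, before differentiation, and at day 3, after it. They were chosen by Ensembl identifier from the 20174 gene identifiers on the array, and all 5 were found, with 1 spot each. The division genes are Ccnd1 (ENSRNOG00000020918), Pcna (ENSRNOG00000021264), Cdk1 (ENSRNOG00000000632) and Mki67 (ENSRNOG00000028137), and the inhibitor is Cdkn1a (ENSRNOG00000000521). The symbols came with this choice of genes. The deposited files list identifiers only, and 0 of the 20174 were matched by the reference table, so the symbols could not be checked against it, no further cell cycle genes could be counted, and no cell type markers could be looked up.

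Total RNA was measured on 6 single-colour arrays (Cy5), 3 per day. Per the labels, the day 0 cells were grown in Raff medium, and the day 3 cells were in Raff medium with growth factors changed so that differentiation could proceed. The labels used here name no genotype, strain, sex or animal age for either group and do not state that the 3 arrays of a day came from separate cultures, so the spread behind each p-value is that between arrays and may be technical only. Titles number 2 arrays of each day as 1 and 2 and leave the third unnumbered.

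Oligodendrocyte precursors divide in the presence of mitogens and leave the cell cycle as they become myelin-forming cells. D-type cyclins carry mitogen signals into G1, the replication clamp serves S phase, and a mitotic kinase drives entry into mitosis. Inhibitors of the Cip/Kip family bind cyclin-dependent kinase complexes and hold the cycle back.

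All 4 division genes had a higher signal on all 3 day 0 arrays than on any day 3 array. Ccnd1, the G1 cyclin, was 2.94-fold higher at day 0, Cdk1 1.99-fold, Mki67 1.93-fold and Pcna 1.51-fold, on the scale of log2(signal + 50) after quantile normalisation, where the offset of 50 understates the change of dim genes. Cdkn1a, the inhibitor, was not higher after differentiation: it was 1.40-fold higher at day 0, with overlapping groups and a size that leaving out 1 array can move by over 1.5 times. None of the 5 passed the test across all genes (limma, adjusted p under 0.05), so none is counted as a change: 0 of 5 were called as lower at day 3, where 0.317% of the 15437 genes tested were (49 genes). At an unadjusted limma p under 0.05, 4 of the 5 were lower at day 3, against 6.11% of the genes tested. A non-overlap of the groups with day 0 higher was shown by 4 of the 5, against 9.11% of the genes tested. The median change of the 5 was -0.95 on the log2 scale, beside -0.0042 for all genes tested, of which 52.1% were lower at day 3. Shares and medians of the 5, here and below, are descriptions, because the genes were chosen with earlier results of these data known. In bulk RNA, fewer dividing cells and less of these transcripts per cell cannot be told apart.

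**Figure D1:**
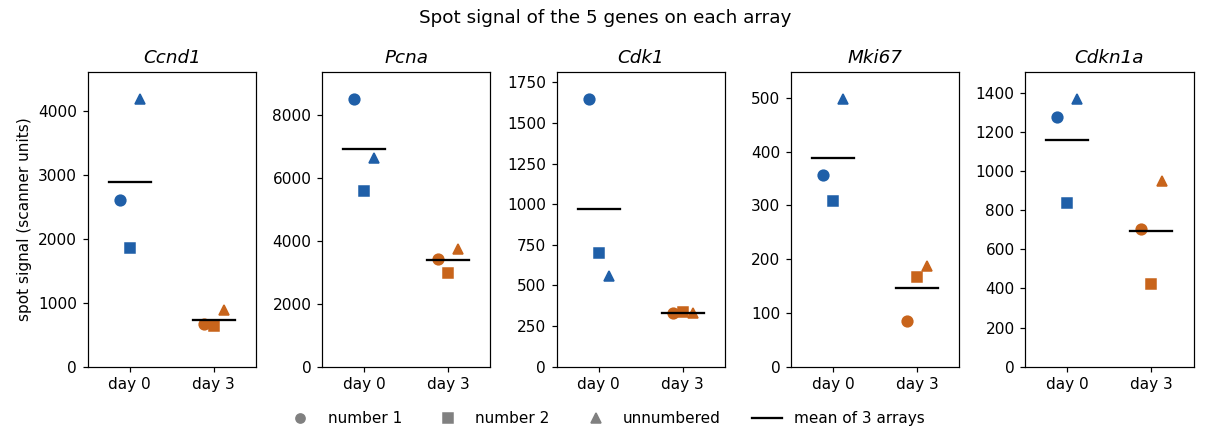
Spot signal in scanner units, before normalisation, on the 3 arrays of day 0 and the 3 of day 3. The vertical axis starts at 0 and has a scale of its own for each gene. Symbols mark the array's number in its title and the bar is the mean of 3 arrays; the groups lie apart for Ccnd1, Pcna, Cdk1 and Mki67 and overlap for Cdkn1a.

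All 5 spots were far above the blank spots. The blank limit of an array was set 2 SD above the mean of its blank spots, with the outer 5% at each end trimmed. It lay between 13.9 and 16.9 scanner units. The median gene spot read 34.6, 31.7 and 38.9 on day 0 number 1, number 2 and unnumbered. At day 3 it read 26.4, 29.3 and 35.8 in that order, each lower than its day 0 counterpart. Signals of the members are given before normalisation and include this difference, whereas the log2 changes are taken after it. The dimmest member value, Mki67 on day 3 number 1, was 6.05 times its limit, and the brightest, Pcna on day 0 number 1, was 557 times its limit. All 5 were above the limit on all 6 arrays, so the filter on dim probes removed none, and every reading was flagged OK at all 3 gains.

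The promoter stretches of Cdk1 and Mki67 are shown because both genes belong to the G2 and mitotic programme, in which promoters are known to carry CCAAT boxes next to a cell cycle homology region. They are from RefSeq, build GRCr8, matched by symbol, bases -200 to -51 before the start that the table gives, 5′ to 3′ on the gene's strand. Capitals mark the letters CCAAT (or its reverse ATTGG) and TTTGAA (or its reverse TTCAAA). The Cdk1 stretch is chr20:19265093-19265242 on the plus strand and the Mki67 stretch is chr1:199952644-199952793 on the minus strand.
Cdk1: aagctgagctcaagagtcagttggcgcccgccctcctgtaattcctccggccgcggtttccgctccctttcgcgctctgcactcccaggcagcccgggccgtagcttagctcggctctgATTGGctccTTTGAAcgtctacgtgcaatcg
Mki67: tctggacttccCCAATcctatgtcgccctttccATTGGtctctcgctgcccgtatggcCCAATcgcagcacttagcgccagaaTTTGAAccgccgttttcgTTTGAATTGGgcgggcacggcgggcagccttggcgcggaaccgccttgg

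In the Cdk1 stretch an ATTGG begins at position -81 and a TTTGAA at -72. In the Mki67 stretch TTTGAA begins at -117 and at -99, and the latter shares its last base with the ATTGG that begins at -94. Over the 250 bases before the start and both strands, CCAAT occurred in 34.0% of 33465 promoter windows of the table and TTTGAA in 16.2%. Windows were found for 4 of the 5 genes. Cdk1 held 3 CCAAT and 2 TTTGAA matches, Mki67 4 and 2, Pcna 1 and 0, and Cdkn1a 0 of either. The letters TTTNNCGC, a form of the E2F motif, matched at 2 places in Cdk1 and at 0 in Pcna, Mki67 and Cdkn1a. They matched in 4.11% of all windows. The Cdkn1a window held 1 match to the p53 consensus half-site, which 6.64% of all windows hold. A match describes these letters in this window only.

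Ccnd1 encodes cyclin D1, the partner of the G1 kinases that phosphorylate the retinoblastoma protein. Its day 0 signal was 2616 on number 1, 1852 on number 2 and 4198 on the unnumbered array. At day 3 the signal was 675, 639.6 and 884 in the same order. The lowest day 0 array was still well above the highest day 3 array, and the day 0 arrays were spread more widely, 2889 ± 1197 against 733 ± 132 (SD, n = 3). The log2 change was -1.55 (SE 0.38, 95% interval -2.53 to -0.58, adjusted p = 0.172, limma), the 25th lowest of the 15437 genes tested. On the authors' processed values, without an offset, Ccnd1 ranked 134th lowest of 14431. The difference was widest in the unnumbered pair, at -2.21, compared with -1.41 and -1.05 in pairs 1 and 2. Without the unnumbered day 0 array the change was -1.15 (adjusted p = 0.117, limma).

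Pcna encodes the sliding clamp that tethers DNA polymerase to the replicating strand. Its signal was 8509 on day 0 number 1, 5582 on number 2 and 6639 on the unnumbered array. At day 3 it read 3420, 2986 and 3735 in that order. The groups did not overlap, with means of 6910 ± 1482 before and 3380 ± 376 after differentiation (SD, n = 3). After normalisation the log2 change was the smallest of the division genes, -0.59 (SE 0.17, 95% interval -1.04 to -0.15, adjusted p = 0.231, limma). The pairs differed in size, at -0.80, -0.21 and -0.77 for pair 1, pair 2 and the unnumbered pair. With arrays scaled to a common median in place of quantile normalisation the change was -0.93 (adjusted p = 0.0882, limma).

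Cdk1 encodes the kinase that drives entry into mitosis with the B-type cyclins. Day 0 number 1 gave a signal of 1650, number 2 gave 701 and the unnumbered array 559. The day 3 arrays gave 329, 336 and 331. Before normalisation the day 3 values were nearly the same on the 3 arrays (332 ± 3.46, SD, n = 3). Day 0 number 1 stood well above the other day 0 arrays (970 ± 593, SD, n = 3). After normalisation the day 3 log2 values were 8.75 (number 1), 8.80 (number 2) and 8.55 (unnumbered). Those of day 0 were 10.43, 9.41 and 9.23 in that order. The log2 change was -0.99 (SE 0.34, 95% interval -1.86 to -0.12, adjusted p = 0.305, limma). It was -1.68 in pair 1, -0.60 in pair 2 and -0.68 in the unnumbered pair. Without day 0 number 1 the change was -0.61 (SE 0.11, adjusted p = 0.223, limma), with the same direction and a smaller size.

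Mki67 encodes Ki-67, a chromosome surface protein used as a marker of cycling cells. It was the dimmest of the spots, with day 0 values of 357 (number 1), 307 (number 2) and 499 (unnumbered). At day 3 it read 84.2, 167 and 188. All day 0 values lay above all day 3 values, 388 ± 99.3 against 146 ± 54.8 (SD, n = 3). Day 3 number 1 was the lowest array, and day 0 unnumbered the highest. The log2 change was -0.95 (SE 0.26, 95% interval -1.62 to -0.28, adjusted p = 0.213, limma). In the pairs it was -1.20, -0.47 and -1.19.

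Cdkn1a encodes p21, the inhibitor of cyclin-dependent kinases that p53 induces, and in the mouse it is known to be needed for oligodendrocyte differentiation. Its signal at day 0 was 1278 on number 1, 839 on number 2 and 1372 on the unnumbered array. At day 3 it was 706 on number 1, 421 on number 2 and 949 on the unnumbered array. The groups overlapped, since the unnumbered day 3 array lay above day 0 number 2. Means were 1163 ± 285 before and 692 ± 264 after differentiation (SD, n = 3). The log2 change was -0.48 (SE 0.33, 95% interval -1.32 to 0.36, adjusted p = 0.681, limma). It was -0.23 without day 3 number 2 (adjusted p = 0.977, limma) and -0.26 without the unnumbered day 0 array (adjusted p = 0.855, limma). Number 2 was low and the unnumbered array high on both days. On the quantile-normalised scale the differences within pairs were close to each other, at -0.36, -0.56 and -0.52 for pair 1, pair 2 and the unnumbered pair. When the pairs entered as a replicate block, the SE on that scale was 0.056 and the adjusted p = 0.0803 (limma), which is still above the threshold. On the authors' processed table the same pairs gave -0.67, -0.45 and -0.31, with pair 1 now the largest. The replicate block there gave an SE of 0.357 (adjusted p = 0.640, limma). The moderation gave every member that same SE, so it does not measure the spread of the Cdkn1a pairs. With the background column subtracted, the replicate block gave an SE of 0.253 (adjusted p = 0.749, limma). The unblocked interval reached up to a rise of 0.36 and down to -1.32 on the log2 scale.

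**Figure D2:**
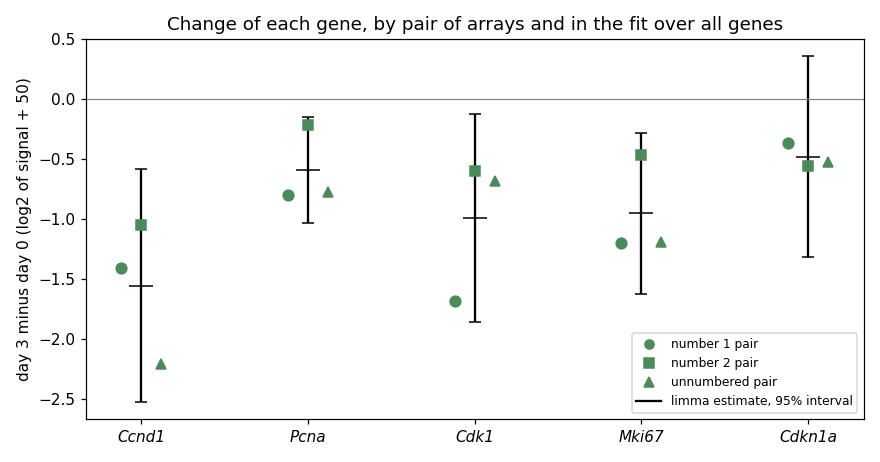
Day 3 minus day 0 in log2(signal + 50) for each gene (vertical axis). Symbols are the 3 pairs of arrays and the black bars the limma estimate with its 95% interval; on this scale every pair value lies below 0, and of the 5 intervals that of Cdkn1a, -1.32 to 0.36, includes 0.

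Across the 3 pairs, all 5 genes were lower at day 3 in 3 of 3 pairs. On this scale pair 2 showed the smallest difference for each of the 4 division genes, whereas for Cdkn1a pair 1 did. Day 0 number 2, the day 0 array of that pair, had the fewest genes above the blank limit, 14985 of 20174, and the other arrays had up to 16828. The part of this in the smaller differences was not tested.

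The change of Cdkn1a was set against that of each division gene within the arrays, with an exact two-sided permutation test over the 20 ways of dividing 6 arrays into 3 and 3, where the smallest possible p is 0.1 and the threshold cannot be reached. The test takes no account of the pairs, and its p-values are given as descriptions. The change of Cdkn1a minus that of Ccnd1 was 1.07 on the log2 scale and above 0 in 3 of 3 pairs (0.50 to 1.69), with exact p = 0.1, or 0.4 after adjustment over the 4 comparisons. Against Cdk1 the difference was 0.51 and above 0 in 3 of 3 pairs (0.047 to 1.32; exact p = 0.4, adjusted 0.533). Against Mki67 it was 0.47 and above 0 in 2 of 3 pairs (-0.089 to 0.83; exact p = 0.4, adjusted 0.533). Against Pcna it was 0.11 and above 0 in 2 of 3 pairs (-0.34 to 0.43; exact p = 0.8, adjusted 0.8).

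**Figure D3:**
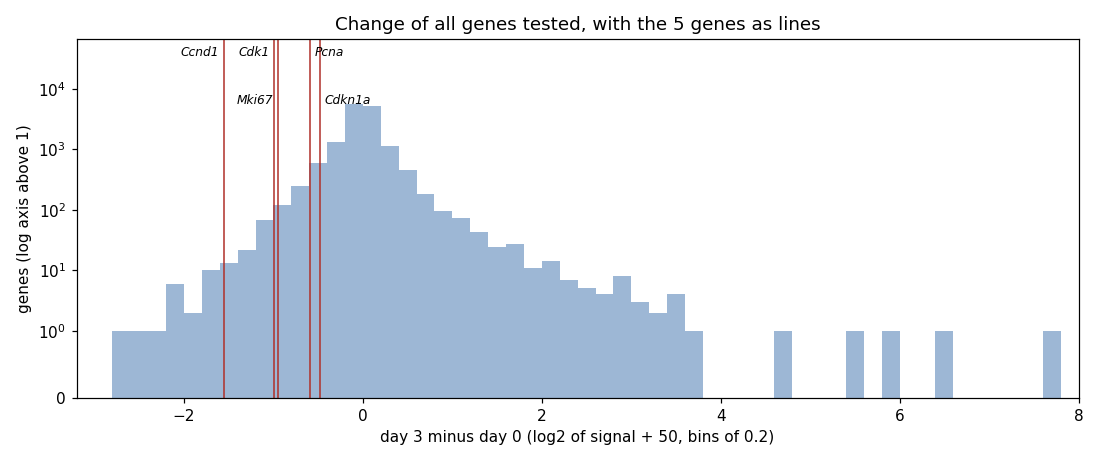
Number of genes (vertical axis, logarithmic above 1) by day 3 minus day 0 in log2(signal + 50), in bins of 0.2, for the 15437 genes tested. Red lines mark the 5 genes, from -1.55 for Ccnd1 to -0.48 for Cdkn1a; all lie below 0, with Ccnd1 farthest out.

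Among all genes tested, 0.155% had a lower change than Ccnd1, 0.816% than Cdk1, 0.894% than Mki67, 3.23% than Pcna and 5.13% than Cdkn1a. On the authors' processed values, without an offset, the shares were larger. Among the 14431 genes there they were 0.922%, 3.28%, 2.22%, 8.63% and 15.3% in the same order. All these shares describe the size of the change alone and take no account of its error. Likeness to the mean standardised profile of the 4 division genes was measured by Pearson's r over the 6 arrays among genes above the limit everywhere. Of 14414 other genes, 90 had r over 0.95, and the highest was ENSRNOG00000011386 (r = 0.997). It was a dim spot with 22.7 to 31.9 units at day 0 and 15.6 to 21.8 at day 3. After normalisation its log2 change was -0.12 (adjusted p = 0.252, limma). For Cdkn1a, 59 of 14417 genes had r over 0.95, led by ENSRNOG00000000120 (r = 0.998). That spot had 2598 to 3357 units at day 0 and 1318 to 2471 at day 3, with a normalised log2 change of -0.31 (adjusted p = 0.703, limma). Both identifiers have no symbol in the files or the reference, and with 6 arrays and so many genes such values of r describe these arrays only.

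The deposited processed values also placed day 0 higher for all 5 genes. Per array they are the signal less the mean of the blank spots, times 1 factor that sets the median listed value to 25. On that scale Ccnd1 was 1569 ± 720 at day 0 and 483 ± 69.3 at day 3, and Pcna was 3758 ± 1169 and 2263 ± 161 (SD, n = 3). Cdk1 was 528 ± 373 and 214 ± 10.6, Mki67 202 ± 64.0 and 89.0 ± 35.5, and Cdkn1a 627 ± 204 and 452 ± 160 (SD, n = 3). The same 4 division genes had groups that did not overlap, against 6.33% of the 14431 genes listed on all 6 arrays. The log2 change without an offset was -1.60 for Ccnd1 (SE 0.40, adjusted p = 0.0586, limma), -1.23 for Mki67 (adjusted p = 0.215), -1.08 for Cdk1 (adjusted p = 0.358), -0.69 for Pcna (adjusted p = 0.591) and -0.48 for Cdkn1a (adjusted p = 0.920). The 2 blocks moved some of these past the threshold on this scale only. With the replicate block Ccnd1 (adjusted p = 0.000242), Mki67 (0.0104) and Cdk1 (0.0324) passed (limma). With title style as a block Ccnd1 (0.00608) and Mki67 (0.0495) did (limma). Both settings were chosen after seeing the data. With the replicate block every member had the same pooled SE of 0.357, which is not its own spread. Pairs 1, 2 and unnumbered gave -1.77, -0.99 and -2.04 for Ccnd1 on this scale. They gave -2.06, -0.38 and -1.25 for Mki67, and -2.17, -0.53 and -0.55 for Cdk1.

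The deposited background column was treated apart. Across gene spots it rose with the signal of its own spot (Spearman 0.917 to 0.968 on the 6 arrays, across genes, which are not independent replicates). At the Pcna spot it amounted to 11.6% of the signal on day 3 number 1 and 77.7% on day 3 number 2, and at the Cdk1 spot to between 6.34% and 40.8%. When it was subtracted (normexp, offset 50), the log2 change was -1.92 for Ccnd1 (SE 0.49, adjusted p = 0.482, limma), -1.08 for Cdk1 (adjusted p = 0.658), -0.89 for Mki67 (adjusted p = 0.713), -0.58 for Pcna (adjusted p = 0.935) and -0.46 for Cdkn1a (adjusted p = 0.934). The groups of Ccnd1, Cdk1 and Mki67 did not overlap on this scale either, which 5.95% of the genes tested showed, while those of Pcna did overlap.

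**Figure D4:**
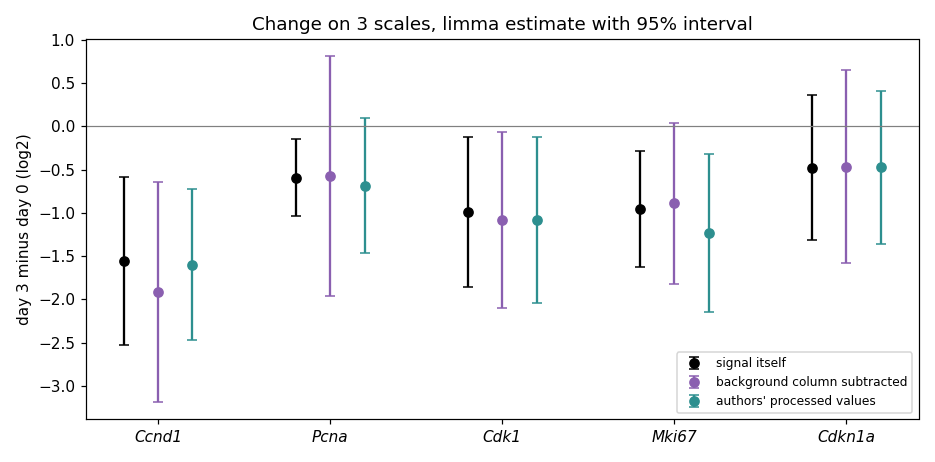
Day 3 minus day 0 on the log2 scale (vertical axis) with its 95% interval from limma, for the signal itself, the signal with the background column subtracted and the authors' processed values. Every estimate lies below 0, from -1.92 to -0.46, and the intervals of Cdkn1a include 0 on all 3 scales, as do those of Pcna (-1.96 to 0.81) and Mki67 (-1.82 to 0.04) with the background column subtracted and that of Pcna (-1.47 to 0.09) on the processed table.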

How the data were processed

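Per the file headers, the authors deposited for each array the median intensity of every spot at 635 nm and a background median, with readings at 3 gains joined by least-squares lines. The authors' processed table holds intensity values that were set against the scanner values here: on each array all listed values lay within 1% of the signal minus the trimmed mean of blank spots, times 1 factor (0.475 to 0.703), and dim spots are null. Which scanner software was used is not given in the sources. Values were log2(signal + 50), quantile normalised over gene spots (R 4.3.3, limma 3.58.1). Genes above the blank limit on every array of at least 1 day were tested with lmFit and eBayes, with Benjamini-Hochberg adjustment over 15437 genes. The signal itself was preferred to background subtraction because the background column follows its spot. That choice, the members and the lists were made with earlier results of these data known. All members are named whatever their result. For likeness, the first of each ranking is printed. The pairs join arrays with the same number in their titles, and the unnumbered arrays form the third. No label states that they are pairs. Deviations from the group means correlated by 0.27, 0.48 and 0.60 within pairs 1, 2 and unnumbered. These correlations come from the same values and do not establish the pairing. The fit was tested on simulated data with independent noise per gene. Effects of pair or title style were not simulated. The number of arrays limits the precision.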

Additional observations from a re-analysis of the deposited data

How the results depend on the processing

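All 5 genes kept a negative change in each of the 22 alternatives that give a test. Settings that changed only the filter, the eBayes options or a block repeat the estimate of their scale. They therefore add no check of the direction. On the signal itself the replicate block (adjusted p = 0.122 for Ccnd1, limma) changed no member's call. Calls appeared only with 2 settings chosen after seeing the data, the authors' processed table with the replicate block (Ccnd1 -1.60, Mki67 -1.23, Cdk1 -1.08) or with title style as a block (Ccnd1 -1.60, Mki67 -1.23). In the former the moderation gave every member the same SE of 0.357. Median scaling gave -1.76, -0.93, -1.19, -1.10 and -0.67 for Ccnd1, Pcna, Cdk1, Mki67 and Cdkn1a. Scaling to the 75th percentile gave -1.62, -0.79, -1.05, -0.96 and -0.53 in the same order and moved the median of all genes to 0.12. Both scalings shift each array by 1 constant. Relative to the median of all genes they therefore gave the same 5 changes, -1.75, -0.91, -1.17, -1.08 and -0.65. The unnumbered pair alone gave -2.21 for Ccnd1. Leaving out 1 array gave -1.82 to -1.15 for Ccnd1, -0.75 to -0.46 for Pcna, -1.24 to -0.61 for Cdk1, -1.08 to -0.74 for Mki67 and -0.69 to -0.23 for Cdkn1a. Adjusted p (limma) ran over the 22 alternatives from 0.000242 to 0.482 for Ccnd1, 0.0653 to 0.935 for Pcna, 0.0324 to 0.658 for Cdk1, 0.0104 to 0.713 for Mki67 and 0.0803 to 0.977 for Cdkn1a.

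Over all genes, 112 rose and 49 fell (limma). These became 4 and 1 with the background column subtracted, 294 and 97 once eBayes used a trend and robust setting, 266 and 81 from the processed table, where the replicate block gave 644 and 553 and title style 493 and 289. Median scaling gave 80 and 62. Rises were 186 with 75th percentile scaling and 64 without a filter, and falls 114 with title style as a block. Both were 0 with the numbered arrays alone (1998 genes at an unadjusted limma p under 0.05) and with the background column and the replicate block (1347 genes), and 2 and 0 with the background column and title style (1422 genes). With 1 array left out there were 0 to 76 rises and 0 to 19 falls (limma; 1660 to 2195 genes at an unadjusted p under 0.05). For these moves the cause was not tested.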
